A study of Mus musculus with 72 samples.

Results

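The cytochrome P450 family 2 is the largest P450 family of mouse liver, and its genes were followed here across clock genotype, microbial state and time of day. Its members were the rows of the count table with a protein-coding gene whose symbol is Cyp2, a subfamily letter or letters and a number, leaving out 1 gene of the Cyp2c subfamily. They numbered 48 of 55573 genes. Of these, 30 had a mean of at least 0.5 CPM (counts per 1000000 counts of a library, scaled by TMM factors) over the 72 libraries and entered the tests.

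P450 enzymes of this family sit in the endoplasmic reticulum, carry a heme, and use electrons passed on by P450 reductase to insert oxygen into drugs, toxins, steroids and fatty acids. Several are switched on in hepatocytes by the nuclear receptors CAR (Nr1i3) and PXR (Nr1i2) when the liver meets foreign compounds, bile acids or microbial products. The circadian clock, whose core activator BMAL1 is encoded by Arntl, drives the PAR bZIP factors DBP, TEF and HLF, which are known regulators of this detoxification program.

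Livers came from male C57BL/6 mice (C57BL/6J in the study's methods), all of them carrying Bmal1 fl/fl alleles, fed chow ad libitum under 12 h of light and 12 h of dark, and aged 10 to 14 weeks when they were acclimatized to individual housing. The WT groups carried no Cre, and the LKO groups also carried Albumin-Cre, which is active in hepatocytes. Liver cells in which it is not active keep Bmal1. Either genotype was kept specific pathogen free (SPF) or germ free (GF) in isolators. Each of the 4 groups (SPF WT and LKO, GF WT and LKO) had 18 mice, 3 at each of ZT2, 6, 10, 14, 18 and 22, counted in hours from lights on. Isolator housing and the absence of microbes cannot be told apart.

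Libraries held 17369927 to 22076113 counts, and the family took 1.60 to 2.56% of them. Markers of hepatocytes were present throughout, with summed medians of 104800, 55910, 131700 and 58100 CPM in SPF WT, SPF LKO, GF WT, then GF LKO mice for 5 genes, among which albumin (Alb) was lower in LKO mice (log2 fold change -0.98 in SPF and -1.70 in GF). Summed markers of pancreas acini reached at most 0.237 CPM. In whole tissue, fewer cells of a type and less RNA per cell cannot be told apart.

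The clock genes of 4 libraries went against their labels. The library labelled SPF LKO ZT14 replicate 2 had 0.22 CPM of Npas2, which is high in livers without BMAL1, where the other libraries of that time had 24.03 and 25.1 CPM, while its Arntl, at 13.07 CPM beside 10.4 and 12.42, did not stand apart. The library labelled SPF LKO ZT18 replicate 1 had 1.83 CPM of Npas2, against 27.6 and 36.4, and 29.3 CPM of Arntl, against 11.4 and 11.9. The library labelled SPF WT ZT14 replicate 3 had 2.11 CPM of Arntl, against 15.8 and 19.3, while the library labelled GF WT ZT6 replicate 3 had 8.24, against 1.64 and 2.42. Npas2 was low in both, at 0.206 CPM (0.0531 and 0.156 in the others of that time) and 0.115 CPM (0.186 and 0.364). Of the 18 Cyp2 genes called in both genotype comparisons below, 14 and 17 were nearer to the WT than to the LKO median in the first and the second of the LKO libraries. All libraries were kept under their labels, and part of the results that rest on these 4 are also given without them.

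Levels between genes were compared per length, as CPM per kb of exon averaged over the 72 libraries. Cyp2e1, the enzyme of ethanol and acetaminophen oxidation, stood far above the rest at 3760. It was followed by Cyp2c29, an arachidonic acid epoxygenase, at 1280. Cyp2c50 (463), Cyp2j5 (424), Cyp2f2 (421) and Cyp2d9 (342) came next; Cyp2j5 also makes epoxides of arachidonic acid, Cyp2f2 activates naphthalene, and Cyp2d9 is a male-biased steroid hydroxylase. These 6 genes held 76.5% of the summed level per length, and Cyp2e1 alone 43.01%.

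**Figure D1:**
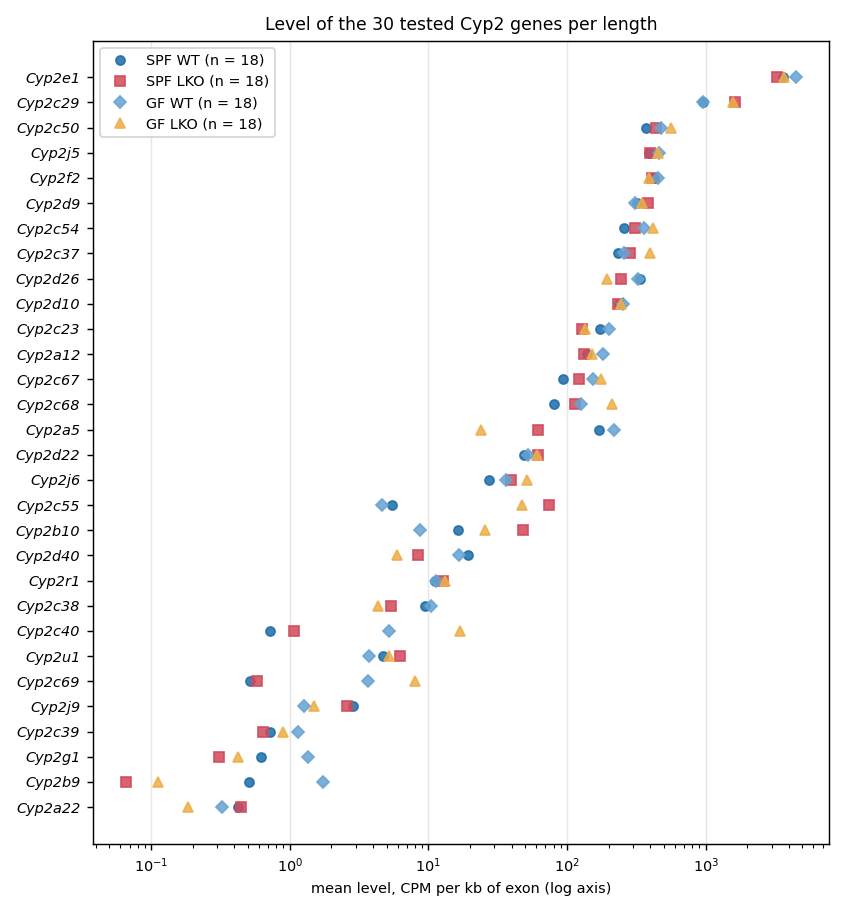
Mean level of the 30 tested Cyp2 genes in each group of 18 mice, in CPM per kb of exon on a log axis, with 1 row per gene ordered by the mean over all libraries. Cyp2e1 lies at the top, and Cyp2c55, Cyp2a5, Cyp2c40 and Cyp2c69 show wide gaps between groups.

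Below these, 15 genes had means from 12.1 to 337, namely Cyp2c54, Cyp2c37, Cyp2d26, Cyp2d10, Cyp2c23, Cyp2a12, Cyp2c67, Cyp2c68, Cyp2a5, Cyp2d22, Cyp2j6, Cyp2c55, Cyp2b10, Cyp2d40 and the vitamin D 25-hydroxylase Cyp2r1. The other 9 tested genes lay between 0.345 for Cyp2a22 and 7.41 for Cyp2c38. The 18 members under the minimum had means of at most 0.383 CPM (Cyp2d11), while the lowest member above it, Cyp2b9, had 1.13. Cyp2w1 had no count in any library, and 8 of the 18 never had more than 2 counts in a library.

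Whole chromosomes held 15 members (chromosome 7, Cyp2a, Cyp2b and Cyp2g among them), 14 (chromosome 19, all Cyp2c), 8 (chromosome 15, all Cyp2d) and 8 (chromosome 4, all Cyp2j). Chromosomes 3, 5 and 16 held a single member each. The genes lie mostly in clusters of near copies, from which Cyp2e1 and Cyp2r1 on chromosome 7 and Cyp2c23 on chromosome 19 lie apart. Reads of 50 bases cannot always tell such copies apart, and reads that aligned to several places were not counted. The share of 50-base stretches of a gene's transcripts that occur in no other gene was 39.7% for Cyp2c40, 45.7% for Cyp2c69, 47.2% for Cyp2c67, 56.7% for Cyp2c68 and 62.97% for Cyp2a5. Counts of these genes therefore come from part of their transcripts, and a division of reads between copies is uncertain.

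The starts of the coding sequences of the closest pairs the results turn on are shown to make this plain (GENCODE transcripts of GRCm38, 120 bases from the ATG of each, for Cyp2c40 the ATG at base 88 of its annotated coding sequence, in lower case, with the bases that differ from the partner in capitals). Cyp2a5 and Cyp2a4 were 98.4% identical over 1482 coding bases, and Cyp2c40 and Cyp2c69 97.9% over 1473.
Cyp2a5: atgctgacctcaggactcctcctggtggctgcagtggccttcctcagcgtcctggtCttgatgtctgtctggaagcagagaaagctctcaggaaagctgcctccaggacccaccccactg
Cyp2a4: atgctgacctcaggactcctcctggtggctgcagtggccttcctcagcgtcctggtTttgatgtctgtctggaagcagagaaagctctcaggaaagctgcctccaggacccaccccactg
Cyp2c40: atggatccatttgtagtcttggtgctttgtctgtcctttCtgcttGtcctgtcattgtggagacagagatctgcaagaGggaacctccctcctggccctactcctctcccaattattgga
Cyp2c69: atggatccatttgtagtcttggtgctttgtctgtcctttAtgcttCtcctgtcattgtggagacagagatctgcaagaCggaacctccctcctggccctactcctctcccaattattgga
A single base differs in the first pair over this stretch, and 3 bases differ in the second.

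The first question was what loss of hepatocyte BMAL1 did to the family. In SPF mice 13 of 29 tested members rose and 6 fell (edgeR's quasi-likelihood test, adjusted p under 0.05), where 23.1% of all 13159 genes tested were called, 11.6% as higher and 11.5% as lower. In GF mice 14 of 30 rose and 11 fell, one of the 11 being Cyp2b9, which passed the filter on low counts only through the GF WT group where it was high, where 30.8% of 12662 genes were called, 15.6% as higher and 15.2% as lower. The median log2 fold change of the members was 0.19 in SPF mice and 0.19 in GF mice, beside -0.01 and 0.01 over all genes. Of the 29 members tested in both, 18 were called in both and each of the 18 had the same direction in both: 12 were higher in LKO mice (Cyp2b10, Cyp2c29, Cyp2c37, Cyp2c50, Cyp2c54, Cyp2c55, Cyp2c67, Cyp2c68, Cyp2d22, Cyp2j6, Cyp2r1 and Cyp2u1) and 6 lower (Cyp2a5, Cyp2c23, Cyp2c38, Cyp2d26, Cyp2d40 and Cyp2g1). How many of all genes were called in both states, or in the same direction in both, was not counted. Of the 12 tested Cyp2c genes 7 were higher in SPF and 9 in GF LKO mice, while the tested Cyp2a genes had no higher call in either.

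**Figure D2:**
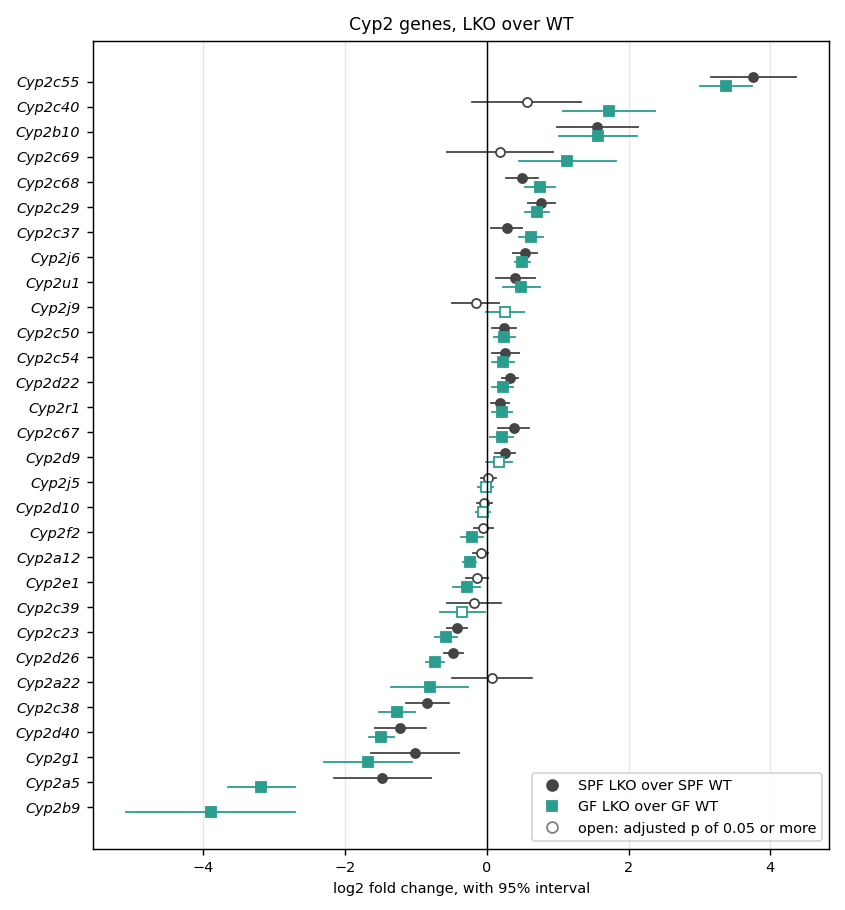
Log2 fold change of LKO over WT for each tested Cyp2 gene, in SPF (circles) and GF mice (squares), with 95% intervals and open symbols for an adjusted p of 0.05 or more. Cyp2c55 lies at 3.76 and 3.37, and Cyp2a5 at -1.47 in SPF and -3.18 in GF mice. Cyp2b9 was tested in GF mice alone.

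Cyp2c55, an epoxygenase and hydroxylase of arachidonic acid that responds to CAR and PXR, had the largest rise. Its lowest, median and highest values were 3.25, 10.1 and 20.4 CPM in SPF WT, 8.88, 171 and 240 in SPF LKO, 3.34, 8.32 and 15.2 in GF WT and 48.5, 91.5 and 156 in GF LKO mice. The GF groups did not overlap. In SPF mice 16 of 18 LKO libraries lay above every WT library, and the other two were the libraries labelled SPF LKO ZT14 replicate 2 (8.88 CPM) and SPF LKO ZT18 replicate 1 (12.9 CPM). The fold change was 13.6 in SPF mice (log2 3.76, SE 0.30, adjusted p = 4.97e-12) and 10.4 in GF mice (log2 3.37, SE 0.18, adjusted p = 3.84e-18), and log2 3.86 in SPF mice without the libraries that stood apart.

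Cyp2b10, the classical phenobarbital-inducible target of CAR, also rose. It ranged from 7.57 to 81.5 CPM (median 35.2) in SPF WT and from 29.7 to 185 (median 93.6) in SPF LKO mice, and from 3.03 to 44.4 (median 21.03) in GF WT and 11.6 to 90.8 (median 56.7) in GF LKO mice. The ranges overlapped in both states, with 13 and 11 of 18 LKO libraries above the highest WT library. The fold changes were 2.95 (log2 1.56, SE 0.28, adjusted p = 6.68e-05) and 2.96 (log2 1.57, SE 0.27, adjusted p = 1.66e-05). Cyp2c29 rose less in ratio but far more in CPM, from a mean of 2929 to 5003 in SPF mice (log2 0.77, SE 0.09) and from 2951 to 4792 in GF mice (log2 0.71, SE 0.08), with 16 of 18 LKO libraries above every WT library in either state.

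The other 9 members that rose in both states had log2 fold changes of 0.19 to 0.54 in SPF and 0.21 to 0.76 in GF mice. Cyp2j6 had 15 and 17 of 18 LKO libraries above every WT library, at medians of 95.7 against 142 CPM in SPF and 131 against 185 CPM in GF mice. Cyp2c37, Cyp2c50 and Cyp2c54 lie beside each other on chromosome 19, and their calls in SPF mice were near the threshold, with adjusted p of 0.0492, 0.0336 and 0.0388 from edgeR. Leaving out 1 library at a time lost these calls in 26, 7 and 16 of 36 fits. The SPF call of Cyp2u1 was lost without SPF LKO ZT6 replicate 3 or ZT22 replicate 1, and the GF call of Cyp2c67 in 17 of 36 fits.

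The promoters of 3 members are shown as examples chosen after their values were seen, namely Cyp2c55 (the largest rise), Cyp2j6 (the only match to CACGTG) and Cyp2d40 (a fall in both states) (RefSeq, GRCm38.p6, bases before the outermost annotated start on the strand of the gene, matches in capitals).
Cyp2c55, chr19:39006769-39007018, plus strand: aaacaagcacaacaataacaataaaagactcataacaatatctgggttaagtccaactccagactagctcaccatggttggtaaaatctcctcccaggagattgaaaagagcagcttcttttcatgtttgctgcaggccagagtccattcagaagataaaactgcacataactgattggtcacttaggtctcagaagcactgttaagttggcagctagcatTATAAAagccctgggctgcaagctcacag
Cyp2j6, chr4:96553662-96553901, minus strand: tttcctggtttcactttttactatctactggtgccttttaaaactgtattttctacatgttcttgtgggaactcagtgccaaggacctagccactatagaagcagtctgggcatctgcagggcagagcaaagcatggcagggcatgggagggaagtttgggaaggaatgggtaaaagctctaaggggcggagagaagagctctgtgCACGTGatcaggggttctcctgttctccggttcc
Cyp2d40, chr15:82764184-82764372, minus strand: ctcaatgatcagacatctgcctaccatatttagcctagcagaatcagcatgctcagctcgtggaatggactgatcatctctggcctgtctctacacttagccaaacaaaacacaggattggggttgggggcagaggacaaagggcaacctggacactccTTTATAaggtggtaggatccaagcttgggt
The capitals are TATAAA, the TATA box, 29 bases before the RefSeq start of Cyp2c55, CACGTG, the E-box that CLOCK and BMAL1 bind, 44 bases before that of Cyp2j6, and TATAAA on the opposite strand 91 bases before that of Cyp2d40. Windows of 250 bases before to 50 after the start were searched on both strands for 40 of the 48 members (42 windows). TATAAA occurred in 20 of the 42, beside 13.6% of 32851 promoters, and CACGTG in 1, beside 7.15%. Cyp2a5, Cyp2c29, Cyp2c38, Cyp2c67 and Cyp2d26, also called in both states, carry TATAAA too. The D-box (TTATGTAA or the palindrome TTACGTAA), the ROR and REV-ERB element (AGGTCA preceded by AANT) and the direct repeats of AGGTCA with a gap of 1 or 4 bases occurred in 0 of the 42, beside 0.938%, 0.119%, 0.219%, 0.0396% and 0.0152% of all promoters. A match is a description of these letters and not of a bound site.

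Cyp2a5, the coumarin 7-hydroxylase of mouse liver, had the largest fall among the abundant members. It ranged from 100 to 641 CPM (median 377) in SPF WT and from 45.02 to 748 (median 74.3) in SPF LKO mice, and from 133 to 946 (median 494) in GF WT and 30.1 to 72.7 (median 48.8) in GF LKO mice. The GF groups did not overlap, while in SPF mice 15 of 18 LKO libraries lay below every WT library. The libraries labelled SPF LKO ZT14 replicate 2 and ZT18 replicate 1 had 748 and 383 CPM, beside 63.7 to 95.6 and 52.8 to 74.2 in the other libraries of those times. Cyp2a5 was 2.77-fold lower in SPF (log2 -1.47, SE 0.34, adjusted p = 0.00136) and 9.08-fold lower in GF LKO mice (log2 -3.18, SE 0.23, adjusted p = 4.36e-14), and without the libraries that stood apart the SPF value was -2.31. The SPF call was lost without replicate 1 (log2 -1.28, adjusted p = 0.0532) or replicate 3 (log2 -1.22, adjusted p = 0.0565) of every time point.

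Cyp2d40 fell in both states. It had 27.3, 34.2 and 49.5 CPM (lowest, median, highest) in SPF WT, 9.30, 11.7 and 49.2 in SPF LKO, 23.03, 28.3 and 40.6 in GF WT and 6.97, 10.5 and 15.04 in GF LKO mice. The GF groups did not overlap, and in SPF mice 16 of 18 LKO libraries lay below every WT library, the other two being again the LKO libraries that stood apart, at 49.2 and 38.7 CPM. The log2 fold change was -1.22 (SE 0.18, adjusted p = 2.20e-06) in SPF and -1.49 (SE 0.09, adjusted p = 1.21e-16) in GF mice, and -1.61 in SPF mice without those libraries.

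In the GF comparison 3 members had groups that did not overlap (Cyp2c55, Cyp2d40 and Cyp2a5), where 1.63% of 12981 genes with a mean of at least 0.5 CPM did so. With GF WT ZT6 replicate 3 left out these 3 did, beside 1.66%. In the SPF comparison 0 members did, beside 0.0077% of genes, and without the libraries that stood apart 4 did (Cyp2c55, Cyp2c29, Cyp2d26 and Cyp2d40), beside 1.59%. The count of members called in SPF mice was 19 with or without them, and the 19 were the same genes.

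The remaining falls were smaller or of rare transcripts. Cyp2d26 went from a mean of 607 to 440 CPM in SPF and from 587 to 351 in GF mice (log2 -0.47, SE 0.07, and -0.73, SE 0.06), and the arachidonic acid epoxygenase Cyp2c23 had log2 fold changes of -0.42 and -0.58. Cyp2c38 had 14.02, 27.04 and 43.2 CPM (lowest, median, highest) in SPF WT, 6.75, 14.5 and 31.3 in SPF LKO, 18.6, 29.4 and 45.7 in GF WT and 6.34, 11.9 and 20.5 in GF LKO mice. Its ranges overlapped, with 9 and 17 of 18 LKO libraries below every WT library, and its log2 fold changes were -0.84 (SE 0.15) in SPF and -1.27 (SE 0.12) in GF mice. Cyp2g1, known from olfactory mucosa, was low, at 0.173, 0.829 and 3.03 CPM (lowest, median, highest) in SPF WT, 0.201, 0.712 and 1.199 in SPF LKO, 0.553, 2.09 and 8.18 in GF WT and 0.319, 0.834 and 1.61 in GF LKO mice. Its groups overlapped, and its log2 fold changes were -1.01 (SE 0.31, adjusted p = 0.0146) in SPF and -1.67 (SE 0.30, adjusted p = 3.42e-05) in GF mice. The SPF call was lost with the replicate block (adjusted p = 0.0717) and without replicate 1 or replicate 3 (0.123 and 0.198).

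Cyp2b9, a female-biased P450 of mouse liver, passed the filter on low counts in the GF comparison through the GF WT group alone, and did not pass it in the SPF comparison. Its lowest, median and highest values were 0.0576, 1.58 and 18.9 CPM in GF WT and 0, 0.0796 and 0.903 in GF LKO mice, with 5 GF LKO libraries at 0, and 0.109, 0.540 and 6.31 in SPF WT and 0, 0.0832 and 0.551 in SPF LKO mice. The GF groups overlapped, with 8 of 18 LKO libraries below every WT library. Fitted with no filter, its log2 fold change was -2.92 in SPF (SE 0.48, adjusted p = 2.77e-05) and -3.90 in GF mice (SE 0.57, adjusted p = 9.28e-07).

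The members with the highest levels were not those that changed most, although Cyp2c29 and Cyp2c50 rose in both states, as given above. Cyp2e1 was at medians of 7743 and 7212 CPM in SPF WT and LKO and at 9388 and 7631 in GF WT and LKO mice, and it fell in GF (log2 -0.28, SE 0.10, adjusted p = 0.0217, a call lost without any 1 of the 3 replicate numbers, at adjusted p of 0.0501 to 0.151) and had -0.13 in SPF mice (adjusted p = 0.224). Cyp2j5 had log2 fold changes of 0.02 (95% interval -0.09 to 0.13) and -0.01 (-0.12 to 0.09). Cyp2d10, which ranked 10 by level per length, had -0.03 (-0.13 to 0.07) and -0.05 (-0.15 to 0.05). Cyp2d9 rose in SPF mice (log2 0.26, SE 0.07, adjusted p = 0.00576, and 0.0509 without replicate 1) and had 0.17 in GF mice (adjusted p = 0.161). Cyp2f2 fell in GF mice (log2 -0.21, adjusted p = 0.0315, lost in 5 of 36 fits that each left out a GF WT or GF LKO library and without replicate 2 or 3) and had -0.05 in SPF mice (adjusted p = 0.644). The difference between states was called for none of Cyp2e1, Cyp2j5, Cyp2d10, Cyp2d9 and Cyp2f2.

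The effect of genotype itself differed between GF and SPF mice for 1 of 30 members, Cyp2a5, where 0.438% of 13484 genes were called. The difference was log2 -1.72 (SE 0.41, adjusted p = 0.0272 from edgeR), a larger fall in GF mice. Without the 4 libraries that stood apart it was -0.87 (adjusted p = 0.461), and no member was called. The value rests on those libraries: the SPF LKO highest value of 748 CPM came from one of them and the next, 383 CPM, from another. Of 13 alternatives in all, 6 kept the call, with values from -1.97 to -0.87.

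**Figure D3:**
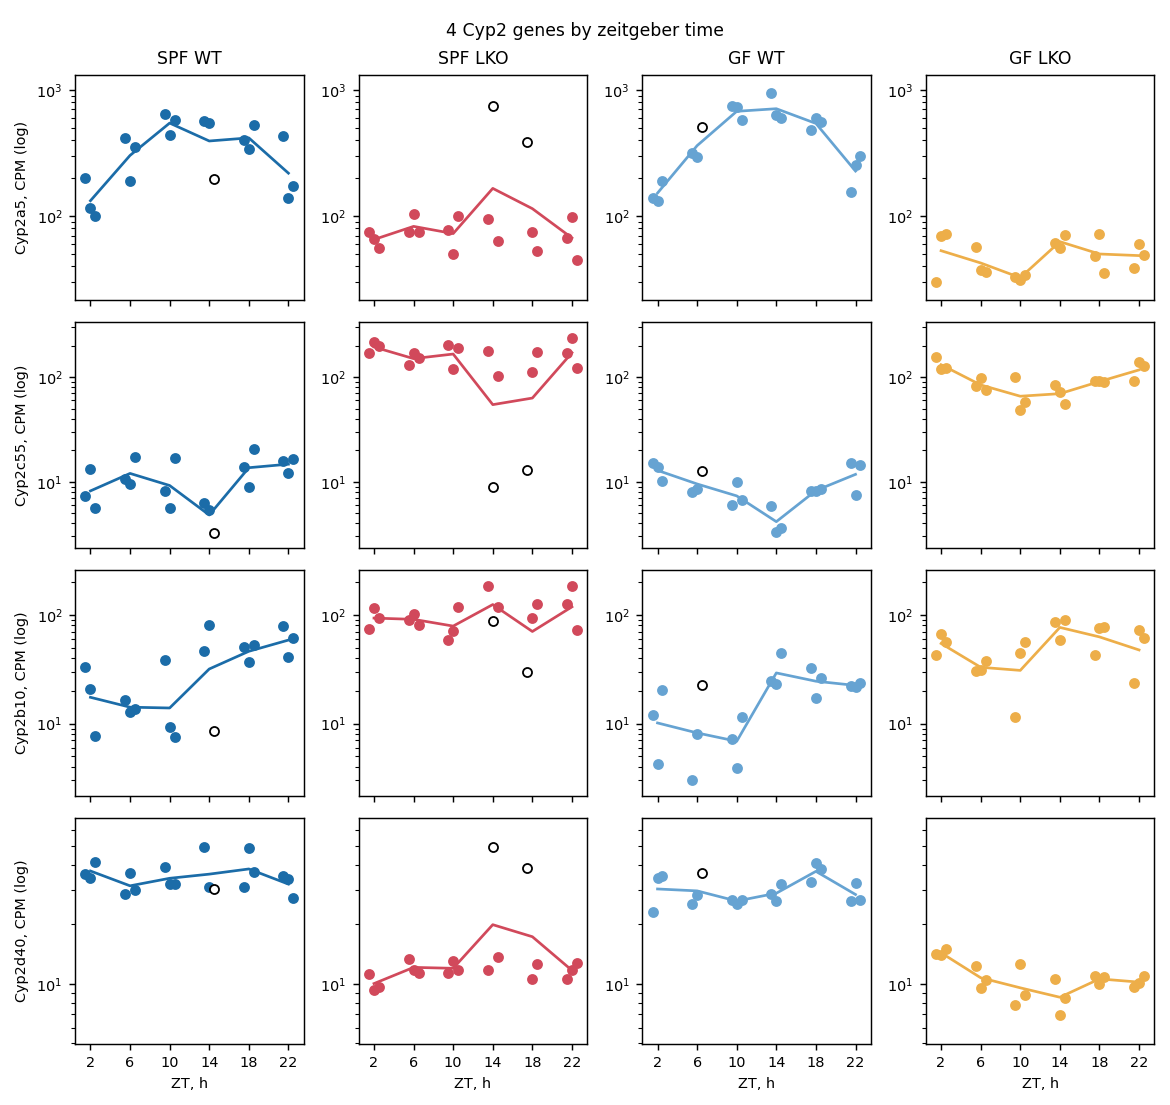
Level of Cyp2a5, Cyp2c55, Cyp2b10 and Cyp2d40 (rows) in each mouse by zeitgeber time (h) in the 4 groups (columns), in CPM on a log axis, with lines through the geometric means of 3 mice and open symbols for the 4 libraries whose clock genes went against their labels. The open symbols in SPF LKO mice lie with the WT levels of Cyp2a5, Cyp2c55 and Cyp2d40.

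The second question was whether life without microbes changed the family. The WT and LKO comparisons share no libraries, but each shares its groups with the genotype comparisons. In WT mice 14 of 30 members were higher and 4 lower in GF than in SPF mice, where 31.8% of 12776 genes were called, 14.2% as higher and 17.7% as lower. One of the 14 was Cyp2b9, which passed the filter on low counts only through the GF WT group where it was high. Its call (adjusted p = 0.0123 from edgeR) was lost without replicate 1 or replicate 2 (0.0607 and 0.0762). In LKO mice 11 of 29 were higher and 7 lower, where 36.4% of 13010 genes were called, 18.1% as higher and 18.4% as lower. The median log2 fold change of the members was 0.15 in WT and 0.05 in LKO mice, beside -0.02 and -0.02 over all genes. In both genotypes 10 members were called higher (Cyp2a12, Cyp2c39, Cyp2c40, Cyp2c50, Cyp2c54, Cyp2c67, Cyp2c68, Cyp2c69, Cyp2j5 and Cyp2j6) and 3 lower (Cyp2b10, Cyp2d40 and Cyp2j9). How many of all genes were called in both genotypes was not counted. Without replicate 2 Cyp2c50 lost its calls in WT and LKO mice (adjusted p = 0.0829 and 0.0635 from edgeR). So did Cyp2j5 (0.0541 and 0.0549).

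**Figure D4:**
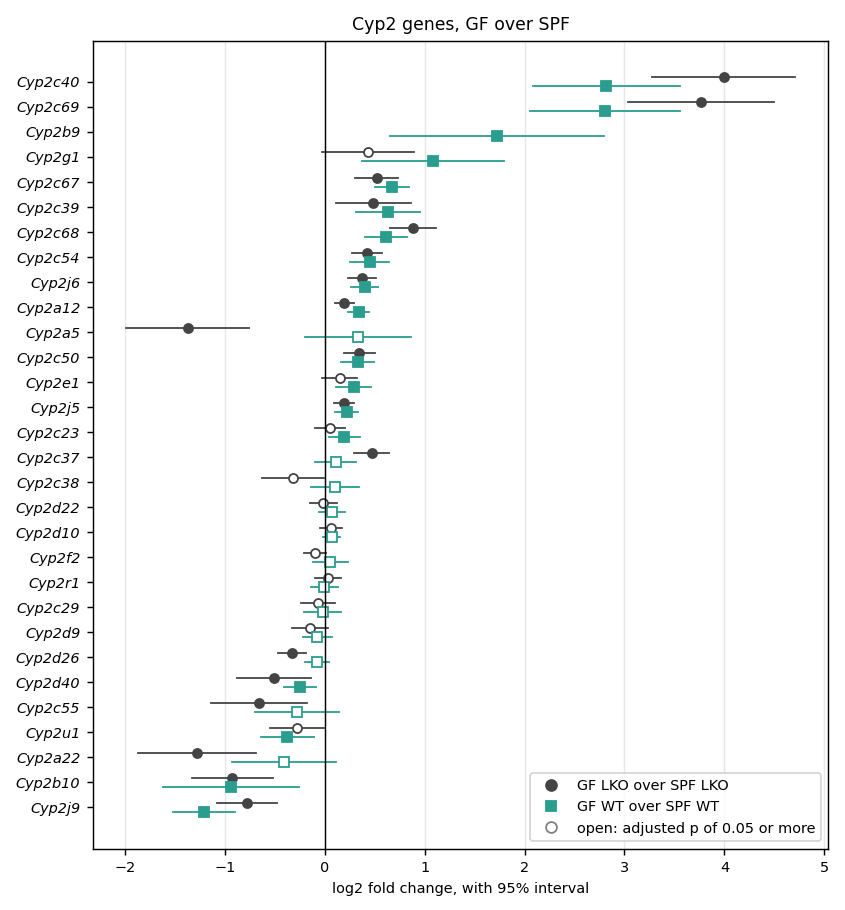
Log2 fold change of GF over SPF for each tested Cyp2 gene in LKO (circles) and WT mice (squares), with 95% intervals and open symbols for an adjusted p of 0.05 or more. Cyp2c40 and Cyp2c69 lie between 2.81 and 3.99 in either genotype, apart from every other member, and Cyp2b10 lies below 0 in both.

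Cyp2c40 and Cyp2c69, neighbours on chromosome 19 whose coding starts are shown above, had the largest differences. Cyp2c40 had 0.285, 1.12 and 4.64 CPM (lowest, median, highest) in SPF WT, 0.922, 8.72 and 40.7 in GF WT, 0.261, 1.64 and 8.92 in SPF LKO and 4.19, 33.97 and 74.3 in GF LKO mice. Of 18 GF libraries, 15 lay above every SPF library in WT mice and 17 in LKO mice. The library labelled SPF WT ZT14 replicate 3 held the highest SPF WT value, while the library labelled GF WT ZT6 replicate 3 held the lowest GF WT value. Cyp2c40 was 7.04-fold higher in GF WT (log2 2.82, SE 0.36, adjusted p = 5.89e-07) and 15.9-fold higher in GF LKO mice (log2 3.99, SE 0.35, adjusted p = 4.63e-11), and without those libraries the WT value was 3.09.

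Cyp2c69 had 0.142, 0.554 and 2.48 CPM (lowest, median, highest) in SPF WT, 0.86, 5.22 and 24.1 in GF WT, 0.177, 0.641 and 4.02 in SPF LKO and 1.16, 13.1 and 34.2 in GF LKO mice. The groups overlapped, with 15 and 16 of 18 GF libraries above every SPF library in WT and LKO mice. The highest SPF WT value was that of SPF WT ZT14 replicate 3, and the lowest GF WT value that of GF WT ZT6 replicate 3. Without these libraries Cyp2c69 stayed called in WT mice. It was 6.99-fold higher in GF WT (log2 2.81, SE 0.37) and 13.6-fold higher in GF LKO mice (log2 3.77, SE 0.36). The genotypes differed in GF mice for both genes (log2 1.73, SE 0.32, for Cyp2c40 and 1.14, SE 0.34, for Cyp2c69) and were not called in SPF mice (0.56 and 0.19, adjusted p = 0.300 and 0.763). The difference between these genotype effects was 1.15 for Cyp2c40 (95% interval 0.14 to 2.16, adjusted p = 0.635) and 0.94 for Cyp2c69 (-0.11 to 1.99, adjusted p = 0.849), so it did not pass the test. Cyp2c40 exceeded Cyp2c69 in 16 of 18 libraries of each SPF group and in all 18 of each GF group, at median ratios of CPM of 1.60, 2.11, 1.69 and 2.79 in SPF WT, SPF LKO, GF WT, then GF LKO mice, a ratio the shared sequence may move.

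**Figure D5:**
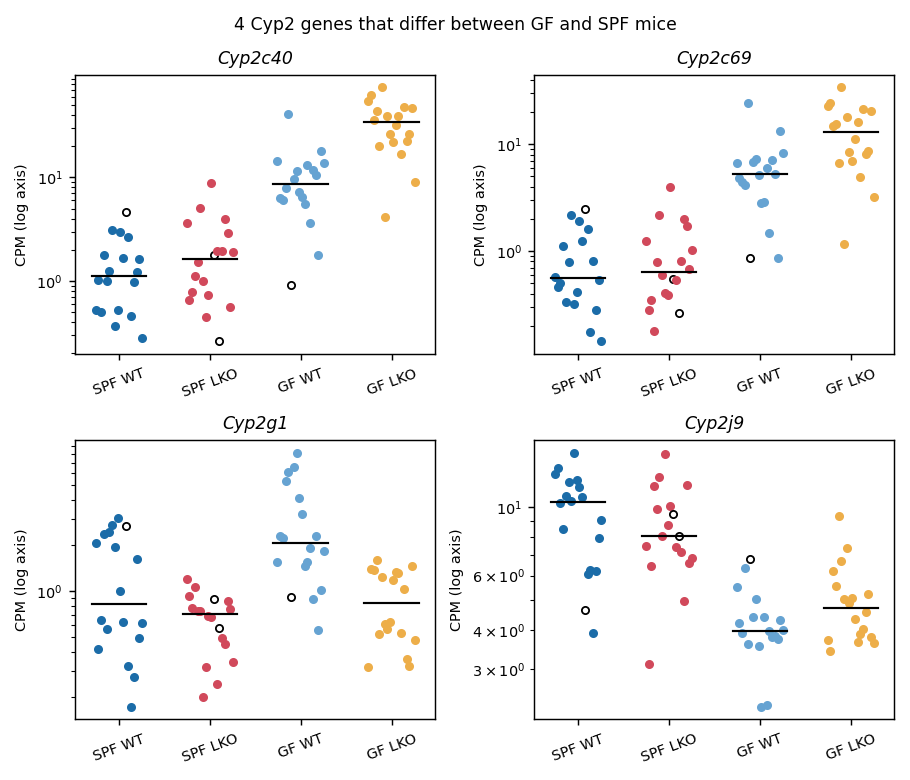
Level of Cyp2c40, Cyp2c69, Cyp2g1 and Cyp2j9 in each mouse, in CPM on a log axis, for the 4 groups, with a bar at the median and open symbols for the 4 libraries whose clock genes went against their labels. Cyp2c40 and Cyp2c69 are higher in GF groups, Cyp2j9 is lower, and Cyp2g1 is high in part of the GF WT mice.

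Other members of the same cluster were also higher in GF mice, by far less. Cyp2c67 had log2 fold changes of 0.68 in WT and 0.52 in LKO mice, Cyp2c68 of 0.62 and 0.89, Cyp2c54 of 0.45 and 0.43 and Cyp2c50 of 0.33 and 0.35. Cyp2c67 and Cyp2c68 share 39.99% and 35.6% of their 50-base stretches with Cyp2c40. Cyp2c39 was higher by 0.64 in WT and 0.49 in LKO mice, the latter call being lost in 14 of 36 fits that left out 1 library. In WT mice Cyp2c23 was higher by 0.20, a call lost in 16 of 36 such fits, and Cyp2u1 fell by 0.37 on the log2 scale, a call lost without SPF WT ZT2 replicate 2, GF WT ZT2 replicate 1 or GF WT ZT22 replicate 1. Outside chromosome 19, Cyp2j6 rose by 0.40 and 0.37 and Cyp2a12, a steroid hydroxylase, by 0.34 and 0.20. Cyp2e1 was higher in GF WT (0.29, SE 0.09, adjusted p = 0.0111, and 0.0822 and 0.0662 without replicate 2 or 3) and had 0.15 in LKO mice (adjusted p = 0.172).

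Cyp2b10 went the other way. With the levels given above, it was 1.92-fold lower in GF than in SPF WT mice (log2 -0.94, SE 0.34, adjusted p = 0.0298) and 1.90-fold lower in LKO mice (log2 -0.92, SE 0.20, adjusted p = 0.000446), and its groups overlapped in both. The WT call was lost when either of 2 SPF WT libraries, ZT14 replicate 2 or ZT22 replicate 1, was left out (adjusted p up to 0.0596). Cyp2j9 had 3.91, 10.3 and 14.96 CPM (lowest, median, highest) in SPF WT, 2.26, 3.98 and 6.80 in GF WT, 3.11, 8.03 and 14.8 in SPF LKO and 3.42, 4.72 and 9.31 in GF LKO mice. It fell by log2 1.21 (SE 0.15) in WT and 0.78 (SE 0.15) in LKO mice, with overlapping groups.

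Cyp2g1 was higher in GF WT mice (log2 1.09, SE 0.35, adjusted p = 0.0170, and 0.241 without replicate 2) and had 0.43 in LKO mice (adjusted p = 0.139). It stayed called in WT mice without the libraries that stood apart. Cyp2b9, which passed the filter through GF WT mice alone, had log2 1.75 in WT (SE 0.51, adjusted p = 0.0146) and 0.76 in LKO mice (SE 0.50, adjusted p = 0.338) when fitted with no filter. Cyp2a22, with medians of 1.55, 1.18, 1.02 and 0.511 CPM in SPF WT, SPF LKO, GF WT, then GF LKO mice, was lower in GF LKO than SPF LKO mice (log2 -1.28, SE 0.29, adjusted p = 0.000865) and lower in GF LKO than GF WT mice (log2 -0.81, SE 0.27, adjusted p = 0.0191), and the second call was lost without GF WT ZT22 replicate 3 (adjusted p = 0.0518).

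In LKO mice Cyp2a5 was 2.58-fold lower in GF than in SPF mice (log2 -1.37, SE 0.30, adjusted p = 0.000606). Without the libraries labelled SPF LKO ZT14 replicate 2 and ZT18 replicate 1 the log2 value was -0.57 (adjusted p = 0.00114). Cyp2d40 had -0.51 (adjusted p = 0.0263), and the call was lost without either of them, with -0.13 (adjusted p = 0.226) without both. Cyp2c55 was 1.58-fold lower in GF LKO mice (log2 -0.66, SE 0.24, adjusted p = 0.0285), with -0.82 without these libraries.

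The third question was time of day. A 24 h cosine curve was called in 4 of 26 members tested in SPF WT, 5 of 27 in SPF LKO, 10 of 28 in GF WT and 9 of 27 in GF LKO mice, where 16.9%, 24.5%, 29.4% and 38.6% of all genes tested in each group were called. With ZT as a factor in place of the curve, 0 calls remained in the SPF groups. Of the genes described below, those of Cyp2b10 in GF WT mice (adjusted p = 0.0797) and of Cyp2j9, Cyp2u1 and Cyp2d9 in GF LKO mice (0.0663, 0.122 and 0.0610) were lost too, all from edgeR. Sizes below are fitted peak-to-trough differences on the log2 scale.

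Cyp2a5 rose in the day and peaked near lights off in WT mice. Its means at ZT2, 6, 10, 14, 18 and 22 were 138, 319, 553, 437, 424 and 249 CPM in SPF WT and 154, 373, 681, 725, 544 and 236 CPM in GF WT mice (n = 3 each). In GF LKO mice the means were 57.1, 43.5, 32.5, 63, 52.3 and 49.4 CPM. The curve spanned 1.67 with a peak at ZT13.0 in SPF WT (adjusted p = 0.0152), 2.25 with a peak at ZT13.0 in GF WT (adjusted p = 3.10e-06) and 0.49 in GF LKO mice (adjusted p = 0.336). The SPF WT call was lost without replicate 2 (adjusted p = 0.234 from edgeR). The rhythms of GF LKO and GF WT mice differed (2.41, adjusted p = 0.000104 from edgeR), the only difference called among 30 members, where 6.38% of genes were called.

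In SPF LKO mice the fitted curve of Cyp2a5 spanned 1.98 with a peak at ZT14.8 (adjusted p = 0.0465), and without the 2 libraries that stood apart it spanned 0.28 (adjusted p = 0.560). The difference from SPF WT mice had an adjusted p of 0.786 with them and 0.0430 without them. Cyp2d40 showed the same dependence: its curve in SPF LKO mice spanned 1.21 (adjusted p = 0.0491) with these libraries and 0.22 (adjusted p = 0.326) without them. Its rhythm differed between GF LKO and SPF LKO mice (1.73, adjusted p = 0.0320), the only one called of 29 members where 5.34% of genes were, and without these libraries the difference was 0.76 (adjusted p = 0.0490) and Cyp2j5 was called too (0.48, adjusted p = 0.0361). No member's rhythm was called as different between SPF LKO and SPF WT mice, where 1.12% of genes were called and 6 members had an unadjusted p under 0.05, or between GF WT and SPF WT mice, where 0.047% were and 3 members had one (edgeR), and limma-voom also called 0 members in either.

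Cyp2b10 was high in the dark phase of WT mice. Its means at ZT2, 6, 10, 14, 18 and 22 were 20.6, 14.2, 18.4, 45.5, 46.9 and 60.8 CPM in SPF WT and 12.2, 11.3, 7.54, 30.6, 25.4 and 22.5 CPM in GF WT mice. The curves spanned 2.17 with a peak at ZT18.7 (adjusted p = 0.0232) and 1.73 with a peak at ZT18.0 (adjusted p = 0.0310), and both calls were lost without replicate 1 or replicate 2 (adjusted p of 0.0674 and 0.170 in SPF WT and of 0.318 and 0.130 in GF WT mice). In LKO mice they spanned 0.32 (SPF, adjusted p = 0.759) and 0.98 (GF, adjusted p = 0.0971), and the differences from WT were not called (adjusted p = 0.329 and 0.743).

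Cyp2c55 peaked near ZT1.24 in GF WT (1.36, adjusted p = 0.00127) and near ZT23.9 in GF LKO mice (0.99, adjusted p = 0.000681), on levels that differed 10.4-fold. Cyp2g1 had the widest curve in GF WT mice, 2.27 with a peak at ZT8.80 (adjusted p = 0.00219), from means of 6.31 CPM at ZT10 to 1.14 CPM at ZT22. The call was lost without replicate 1 (adjusted p = 0.0745 from edgeR). It was kept without GF WT ZT6 replicate 3, which had 0.922 CPM beside 5.33 and 6.09 in the others of that time. In the other groups Cyp2g1 did not pass the filter on low counts, so no curve was tested there. Its rhythm in GF WT mice was not called as different from that in SPF WT (0.32, adjusted p = 0.965 from edgeR) or GF LKO mice (1.95, adjusted p = 0.1945). Cyp2j9 peaked at ZT6.53 in SPF WT (1.03, adjusted p = 0.0280) and at ZT7.24 in GF LKO mice (0.73, adjusted p = 0.0221). Its SPF WT call was lost without any 1 replicate number (adjusted p of 0.0687 to 0.175 from edgeR). Its GF LKO call was lost without replicate 2 or replicate 3 (0.229 and 0.0928). Cyp2a22 spanned 1.54 with a peak at ZT4.72 in SPF LKO mice (adjusted p = 0.0448), a call lost under limma-voom (0.0837), with the replicate block (0.0615) and without SPF LKO ZT14 replicate 2 (0.0558).

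The abundant Cyp2e1 had shallow curves with peaks between ZT10.5 and ZT12.5 in the 4 groups, called in SPF LKO (0.46), GF WT (0.69) and GF LKO mice (0.65) and at 0.38 in SPF WT mice (adjusted p = 0.185). Its SPF LKO call was lost without any 1 replicate number (adjusted p of 0.0515 to 0.131 from edgeR). In GF WT mice its means ran from 7725 CPM at ZT22 to 12040 CPM at ZT14. Cyp2c29 peaked at ZT20.6 in SPF WT mice (0.48, adjusted p = 0.0358) and at ZT0.79 in GF WT mice (0.68, adjusted p = 0.00155). Its SPF WT call was lost without any 1 replicate number (adjusted p of 0.113 to 0.223). In GF LKO mice Cyp2u1, a hydroxylase of long fatty acids, spanned 0.66 with a peak at ZT23.1, and Cyp2d9 0.61 with a peak at ZT10.7. The Cyp2u1 call was lost without replicate 2 or 3 (adjusted p = 0.196 and 0.270), and that of Cyp2d9 without replicate 1 or 3 (0.0917 and 0.110). In SPF LKO mice Cyp2c54 spanned 0.45 with a peak at ZT6.92, a call lost without the libraries that stood apart (0.41, adjusted p = 0.0670) and without any 1 replicate number (adjusted p of 0.0507 to 0.210).

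Genes that act on or with the family were read from lists. Of 20 tested regulators 0 were higher and 6 lower in LKO against WT mice when SPF, and 1 was higher and 8 were lower when GF, with medians of -0.15 and -0.22 on the log2 scale, beside the 23.1% and 30.8% of all genes called. The receptors CAR and PXR were lower while Cyp2b10 and Cyp2c55 were higher. Nr1i3 had log2 fold changes of -0.66 (SE 0.14) in SPF and -0.60 (SE 0.09) in GF mice, and Nr1i2 of -0.35 (SE 0.09) and -0.43 (SE 0.06). Ahr, a further receptor on the list, had means of 51.83 and 56.65 CPM in SPF WT and LKO mice. In GF WT and LKO mice its means were 67.29 and 66.94 CPM. The fatty acid receptor Ppara had log2 fold changes of -0.67 in SPF and -0.80 in GF mice, and Dbp of -2.28 and -2.78. The other PAR bZIP genes differed less: Tef had means of 152.5 and 110.8 CPM in SPF WT and LKO mice, and Hlf of 56.92 and 51.57. In GF WT and LKO mice Tef had means of 141.6 and 106.7 CPM, and Hlf of 58.95 and 43.22. Between GF and SPF mice 2 regulators were called in WT mice, 1 in each direction, and 7 in LKO mice, 2 of them higher, beside 31.8% and 36.4% of all genes, while Nr1i3 had -0.27 (adjusted p = 0.0662) and -0.20 (adjusted p = 0.186).

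Among 8 genes that supply electrons or heme, 2 were lower in SPF LKO and 5 in GF LKO mice, with 0 higher, beside 23.1% and 30.8% of all genes. Por, the P450 reductase on which the whole family depends, had log2 fold changes of -1.04 (SE 0.24, adjusted p = 0.00128) and -1.93 (SE 0.26, adjusted p = 1.17e-07). Alas1, the first enzyme of heme synthesis, had -0.59 and -0.53 and did not pass the test. Between GF and SPF mice 2 of the 8 were higher in WT mice, and 1 was higher and 3 were lower in LKO mice, beside 31.8% and 36.4% of all genes.

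Of 8 male-biased liver genes 4 were higher and 1 lower in LKO than in WT mice in the SPF state, and 5 were higher and 1 lower in the GF state, beside 11.6% and 15.6% of all genes called as higher. In GF against SPF mice 5 were higher and 1 lower in WT, and 6 and 1 in LKO mice, beside 14.2% and 18.1% called as higher. The 8 female-biased genes summed to at most 3.44 CPM in any library and were not tested. Pericentral markers, of the zone where Cyp2e1 is known to be expressed, did not move one way: of 5, Oat was higher and 2 were lower in SPF LKO mice, and Oat was higher and 3 lower in GF LKO mice, while of 5 periportal markers 0 and 1 were higher and 1 and 1 were lower. These counts stand beside 23.1% and 30.8% of all genes called in SPF and GF mice. Summed pericentral markers had medians of 1889, 2500, 2198 and 2287 CPM and summed periportal markers medians of 1290, 1209, 1364 and 1166 CPM in SPF WT, SPF LKO, GF WT, then GF LKO mice.

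Markers of other cells were compared in the same way. Of all genes, 23.1% and 30.8% were called between genotypes in SPF and GF mice. Between GF and SPF mice 31.8% were called in WT and 36.4% in LKO mice. Among 4 Kupffer cell markers 3 were lower in SPF LKO mice and 0 were called in GF LKO mice, with summed medians of 235, 200, 214 and 179 CPM in SPF WT, SPF LKO, GF WT, then GF LKO mice. Of 4 cholangiocyte markers 1 was higher in LKO mice in either state (summed levels from 3.14 to 19.4 CPM), and of 4 stellate cell markers 1 was higher in either. Of 4 markers of sinusoidal endothelium 0 and 1 were higher in SPF and GF LKO mice. Of the 3 genes listed for lymphocytes only Ptprc passed the filter on low counts in these pairs of groups. Ptprc and the 2 erythrocyte markers had 0 calls between genotypes. Between GF and SPF mice, 4 of 5 hepatocyte markers were higher in WT mice (median log2 0.39), and 3 were higher and 1 lower in LKO mice (median 0.31). Ptprc, which marks white blood cells in general, had log2 fold changes of GF over SPF of -0.71 in WT and -0.58 in LKO mice. Of the endothelial markers 1 was higher and 2 lower in WT, and 1 was higher and 1 lower in LKO mice. In either genotype 1 cholangiocyte marker was lower and 0 Kupffer or stellate cell markers were called, and 1 of 2 erythrocyte markers was lower in LKO mice. Of the zone markers, 2 pericentral and 1 periportal were higher in WT mice, and 1 pericentral was lower and 1 periportal each was higher and lower in LKO mice. The part of these and of the hepatocyte markers in the results on the family was not tested.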

How the data were processed

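Liver mRNA of 72 mice was sequenced from a single end (50 bases). The authors deposited raw counts of reads per gene, made with STAR 2.6.1b on mm10 and featureCounts 2.0.0 on exons of the Ensembl GRCm38.97 annotation, without strand and without multi-mapped reads (versions also per the submitters' processing notes). Values of near-identical, overlapping and antisense genes are therefore uncertain. Groups came from the labels, and 0 columns were unused. Of the 55573 rows, 55480 had a GENCODE entry, which gave the gene symbol. Positions came from GENCODE for GRCm38.

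Every 2 groups compared were fitted on their 36 libraries with ZT pooled, by edgeR 4.0.16 in R 4.3.3 (TMM, filterByExpr, quasi-likelihood F test, two-sided) with Benjamini-Hochberg adjustment over all genes kept, called at an adjusted p under 0.05. The interaction used all 72 libraries. Rhythms were cosine and sine terms of 24 h, tested jointly. DESeq2 1.42.0, limma 3.58.1, other scaling, no filter, ZT as a factor, the replicate block and left-out libraries were alternatives. Scripts were tested on simulated data.

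Members, the lists (regulators, electron and heme supply, male- and female-biased genes, cell type and zone markers) and the motifs were chosen with earlier results of these data known. Genes described in full were the 6 highest per length, called members with a log2 change of at least 1 (at most 8 a comparison), every interaction call, the 5 widest rhythms a group and the 5 called with the smallest p in each rhythm difference; other members are given by ranges, counts and examples chosen after their values were seen.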

Additional observations from a re-analysis of the deposited data

Results flagged for a closer look

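Cyp2a5 is listed because the effect of genotype differed between GF and SPF mice by -1.72 on the log2 scale (SE 0.41, adjusted p = 0.0272 from edgeR), and it was -0.87 (adjusted p = 0.461) without the 4 libraries whose clock genes went against their labels. Its rhythm differed between GF LKO and GF WT mice (adjusted p = 0.000104 from edgeR), a call kept in 9 of 9 alternatives.

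Cyp2d40 is listed because its rhythm differed between GF LKO and SPF LKO mice (adjusted p = 0.0320 from edgeR), a call kept in 4 of 11 alternatives, with adjusted p from 0.00114 to 0.241. In SPF LKO mice the 2 libraries that stood apart held its highest values, 49.2 and 38.7 CPM, against 9.30 to 13.7 in the others.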

How the results depend on the processing

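Among single members, 347 values kept their direction and side of the threshold under the other settings, 29 lost a call, 1 gained one and 1 changed sign; with a replicate number or a library left out, 243 kept both, 68 lost a call and 3 changed sign. Signs changed for values near 0: Cyp2j5, GF LKO over GF WT (0.013 without replicate 1, the range over replicates being -0.031 to 0.013) and Cyp2c29, GF WT over SPF WT (0.018 with no filter, and -0.0976 to 0.045 without a replicate number, with 0.0013 without replicate 2); the cause was not tested. Members called by leaving out 1 replicate number or library ranged from 11 to 19 in SPF and 18 to 25 in GF mice between genotypes, 9 to 18 in WT and 12 to 18 in LKO mice between microbial states, and 0 to 1 for the interaction. For rhythms they were 0 to 4 (SPF WT), 0 to 2 (SPF LKO), 4 to 10 (GF WT) and 4 to 7 (GF LKO), and for rhythm differences 1 to 2 between GF genotypes, 0 to 1 between LKO mice and 0 for the other two. With ZT as a factor, rhythms were called in 0, 0, 5 and 4 members of SPF WT, SPF LKO, GF WT, then GF LKO mice and 0 differed between LKO mice; with no filter 8 were called in SPF WT mice and 2 differed between LKO mice; limma-voom gave 3 in SPF LKO mice and 0 differing between LKO mice. Without the libraries that stood apart the interaction had 0 calls, SPF LKO rhythms 2, and rhythm differences 1 between SPF genotypes and 2 between LKO mice. Replicate numbers were shared by groups. Between 2 groups, samples of 1 number and time point had median correlations of -0.02 to 0.02 over 18 pairs. Single pairs ran from -0.23 to 0.34. Samples of 1 number were not compared across time points. With the replicate block the interaction had 0 calls, SPF LKO rhythms 2 and rhythm differences between LKO mice 0. Cyp2c54 and Cyp2g1 (SPF genotypes) and Cyp2c39, Cyp2c55 and Cyp2d40 (LKO mice) lost their calls with it. Leaving out each single library was added after seeing the data. Depth limits the members under 0.5 CPM, and near copies limit Cyp2c40, Cyp2c69, Cyp2c67 and Cyp2c68.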
